A study of Mus musculus with 4 samples.

Results

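The basement membrane genes and integrins of brain vascular-associated cells (BVACs) were measured across cell classes, and between mice after chronic social defeat (CSD) and home cage (HC) mice. The set took every gene whose symbol matched a laminin chain (Lama, Lamb or Lamc and a digit), a collagen IV chain (Col4a and a digit) or an integrin chain (Itga or Itgb, without the Itgb1bp genes and Itgbl1), plus Nid1, Nid2, Hspg2, Agrn, Dag1, Sparc and Fn1. It held 53 of the 31053 genes in the files, of which 11 encode laminin chains, 6 collagen IV chains, 18 integrin alpha chains, 9 integrin beta chains, 6 other matrix proteins and 1 (Dag1) the matrix receptor dystroglycan. The other 2, Col4a3bp and Itgb3bp, matched by symbol alone: Col4a3bp encodes a ceramide transfer protein and Itgb3bp a centromere protein. The marker genes of the set, Lama4, Col4a1 and Itgb1, were detected in endothelial cells, pericytes and arterial smooth muscle of every library.

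Single cells came from brains of male wild-type C57BL/6 mice, 12 to 14 weeks old per the study's methods, freed by mechanical steps and collagenase II and captured on beads carrying antibody to CD31, an endothelial surface protein. CSD mice lived for 14 days beside an aggressive CD-1 mouse behind a perforated partition that was lifted briefly each day, and for the same 14 days each HC mouse had a CD-1 cage mate behind an acrylic partition that stayed in place. Cells of 4 mice were pooled into each library, with 2 CSD and 2 HC libraries, so that n = 2 libraries per condition. The p-values of CSD against HC measure the spread between pools. RNA was read from its 3′ end and counted as unique molecular identifiers (UMIs), and levels are compared below within a gene and not between genes.

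A basement membrane is a thin sheet of matrix on which endothelium rests and in which pericytes and smooth muscle are embedded. Laminins, trimers of an alpha, a beta and a gamma chain, and collagen IV form its polymers, which nidogens, perlecan (Hspg2) and agrin (Agrn) link to each other and to cells. Cells bind it through integrins, each a pair of an alpha and a beta chain, and through dystroglycan. At brain capillaries this sheet has an endothelial and an astrocytic layer and is part of the blood-brain barrier (BBB).

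The libraries held 27297599 to 30361474 UMIs and gave 2553 to 4934 cells each with at least 500 UMIs, at least 250 genes and at most 25% mitochondrial UMIs, 14415 in all. CSD library 2 stood apart with 32.6% of its UMIs in these cells, against 51.8% to 56.8% in the other libraries. At most 9 cell barcodes were shared between any 2 libraries. Cells were placed in classes by marker genes that include none of the 53: 5097 endothelial cells (EC), 476 pericytes, 452 arterial smooth muscle cells (SMC), 91 fibroblasts, 274 astrocytes, 93 oligodendrocyte precursor cells (OPC), 4491 microglia, 121 border-associated macrophages (BAM), 111 T cells, 1539 choroid plexus and 213 ependymal cells. Among EC, 3422 were gated as capillary, 254 as arterial and 73 as venous. Genes that gated nothing followed the class names: Pecam1 was at 472 CPM (counts per 1000000 UMIs of the class) in EC and 6.77 CPM over the pooled UMIs of the other classes, Rgs5 at 6148 CPM in pericytes and 169.5 CPM over the others, and Myl9 at 7411 CPM in arterial SMC and 43.9 CPM over the others. Microglia held the macrophage gene Csf1r at 2043 CPM, and BAM at 991.7 CPM. The leading genes of capillary EC against the other subtypes included the hemoglobin genes Hbb-bs and Hba-a1. Those of arterial EC included the mural genes Rgs5 and Myl9, and those of venous EC the inflammation genes Lcn2, Ptgs2, Vcam1 and Cxcl1. Free RNA was read in barcodes with at most 100 UMIs.

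The collagen IV genes lie in head-to-head pairs, and the stretches at their starts are shown because the levels of the partners are set side by side below. On GRCm38, Col4a1 (minus strand, chr8:11198423-11312826) and Col4a2 (plus strand, chr8:11312805-11449287) overlap by 22 bases. Col4a4 (minus strand, chr1:82448423-82586849) and Col4a3 (plus strand, chr1:82586921-82722059) are 71 bases apart, and Col4a6 (minus strand, chrX:141165403-141474076) and Col4a5 (plus strand, chrX:141475385-141689234) are 1308 bases apart. The letters are from RefSeq promoter windows of GRCm38.p6, with the motifs CCAAT and GGGCGG, searched on both strands and sharing no letters, in capitals.
Col4a1 and Col4a2 shared bases, chr8:11312805-11312826, plus strand: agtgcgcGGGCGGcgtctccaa
Col4a3 and Col4a4 gap, chr1:82586850-82586920, plus strand: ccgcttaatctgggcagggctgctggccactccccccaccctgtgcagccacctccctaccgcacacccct
Col4a6 upstream, chrX:141474077-141474326, minus strand: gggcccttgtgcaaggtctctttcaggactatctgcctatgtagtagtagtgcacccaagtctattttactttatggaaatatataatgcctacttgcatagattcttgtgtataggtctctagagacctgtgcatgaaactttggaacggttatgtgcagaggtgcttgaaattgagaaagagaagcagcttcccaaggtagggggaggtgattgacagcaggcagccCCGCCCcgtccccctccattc
Col4a5 upstream, chrX:141475169-141475384, plus strand: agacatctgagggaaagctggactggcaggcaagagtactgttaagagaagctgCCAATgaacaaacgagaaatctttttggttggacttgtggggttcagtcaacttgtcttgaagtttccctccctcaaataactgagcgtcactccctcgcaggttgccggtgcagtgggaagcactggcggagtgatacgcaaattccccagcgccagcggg
The bases shared by Col4a1 and Col4a2 and those before Col4a6 each held 1 match to GGGCGG, those before Col4a5 held 1 match to CCAAT, and the 71 bases between Col4a3 and Col4a4 held neither. These stretches are only parts of the promoters. In windows of 300 bases, Col4a1, Col4a2 and Col4a5 held both motifs, Col4a6 held GGGCGG alone and Col4a4 held neither. Of 32851 RefSeq windows of 300 bases, 37.4% held CCAAT and 35.7% held GGGCGG. Of the 53 genes, 35 had a window, with 40 windows between them. Counted by gene and not by window, 9 of the 35 held CCAAT and 19 held GGGCGG. Counts by gene are not a like measure to the shares of single windows.

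The laminin chains differed in the vessel class in which they were highest. Lama4, the alpha chain of a laminin of vessel walls (chr10:38965515-39110188), was at 181 and 208 CPM in pericytes of CSD and 174 and 151 CPM in those of HC, and at 40.3 and 41.4 CPM in EC of CSD and 53.3 and 60.8 CPM in EC of HC. Every pericyte library lay above every EC library. Lama2, an alpha chain of muscle and astrocyte basement membranes, was at 209.9 CPM ± 66.0 in pericytes and 126 CPM ± 61.1 in fibroblasts (SD, n = 4 libraries, here and below), and at 5.99 CPM ± 2.78 in EC. Lama5, the other alpha chain of endothelial basement membranes, was at 101 CPM ± 10.2 in arterial SMC and 49.3 CPM ± 9.42 in EC, where it had 416 UMIs against 2 UMIs in pericytes. Its arterial SMC libraries lay above every EC library. Lama1, an alpha chain known from the outer layer at the brain surface, was at 25.2 and 66.1 CPM in fibroblasts of CSD and 15.3 and 151.7 CPM in those of HC, on 20 UMIs, and at no more than a mean of 0.98 CPM in the other broad classes.

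Of the beta and gamma chains, Lamb2 was at 223 CPM ± 77.8 in pericytes, 209.7 CPM ± 28.2 in arterial SMC and 173 CPM ± 30.0 in EC, and these libraries overlapped. Lamb1 was at 95.2 CPM ± 52.9 in fibroblasts and 65.7 CPM ± 35.4 in pericytes but at 2.30 CPM ± 1.12 in EC. Lamc1, the gamma chain of most laminins, was at 207 and 523 CPM in pericytes of CSD and 277 and 284 CPM in those of HC, above every library of fibroblasts, the next class at 105 CPM ± 41.7. Lamc3 was at 209 CPM ± 66.3 in pericytes, 104 CPM ± 36.1 in fibroblasts and 20.4 CPM ± 5.05 in EC. Lamb1, Lamc1 and Lamc3 were thus higher in pericytes than in EC, and Lamb2 was at overlapping levels. Lama3 and Lamb3 did not reach a mean of 50 CPM in any class.

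Collagen IV partners were correlated in mean level across classes, though Col4a1 was highest in pericytes and Col4a2 in arterial SMC. Col4a1 was at 279.7 CPM ± 81.8 in pericytes, 275 CPM ± 29.6 in arterial SMC and 244 CPM ± 26.1 in EC, with overlapping libraries, and Col4a2 at 161 CPM ± 24.9, 233 CPM ± 21.2 and 156 CPM ± 12.9 in the same classes. For each Col4a1 UMI there were 0.85 ± 0.03 Col4a2 UMIs in arterial SMC, from 0.81 to 0.88 over the libraries, and 0.64 ± 0.06 in EC, from 0.60 to 0.73. The libraries of arterial SMC and EC did not overlap in this ratio. By subtype, arterial EC (0.65 to 0.83) and venous EC (0.5 to 1) did overlap arterial SMC. Capillary EC (0.59 to 0.67) and pericytes (0.34 to 0.80) did not. Col4a3 and Col4a4, the chains of specialised membranes such as that of the kidney glomerulus, were highest in pericytes at 33.3 CPM ± 8.01 and 54.3 CPM ± 19.4, and next in choroid plexus cells at 14.2 CPM ± 2.65 and 25.3 CPM ± 4.29. For both genes every pericyte library lay above every choroid plexus library, on 18 and 28 UMIs in pericytes, but at 1000 UMIs per cell the libraries of Col4a3 overlapped. The gene Ttr alone was at 311047 CPM in choroid plexus cells, which lowers the CPM of every other gene there. Counted without Ttr, the highest choroid plexus library of Col4a4, at 29.9 CPM with it, would pass the lowest pericyte library, at 37.1 CPM. The separation of Col4a4 thus rests on counting Ttr. For Col4a3, at 16.3 and 23.2 CPM, these libraries would be about level. Col4a5 and Col4a6 were highest in fibroblasts at 85.2 CPM ± 27.3 and 46.0 CPM ± 38.5, and next in arterial SMC at 59.6 CPM ± 12.5 and 12.7 CPM ± 5.09. Over the 11 broad classes Spearman's rho of the mean levels was 0.87 for Col4a1 and Col4a2, 0.74 for Col4a3 and Col4a4 and 0.69 for Col4a5 and Col4a6, a description of 11 classes that share libraries and free RNA. Pairs of genes that are not partners were not correlated, so these values do not show a trait particular to partners.

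Among the linkers, Nid1, which joins laminin to collagen IV, was at 354 CPM ± 78.3 in pericytes and 280.5 CPM ± 65.9 in fibroblasts, with overlapping libraries, and at 34.1 CPM ± 6.83 in EC. Agrn was at 186 CPM ± 21.6 in pericytes, 178 CPM ± 31.6 in EC and 32.1 CPM ± 13.1 in arterial SMC. Hspg2 was at 75.7 CPM ± 6.01 in EC and 72.5 CPM ± 22.3 in arterial SMC, and Nid2 at 43.0 CPM ± 19.6 in pericytes. Dystroglycan (Dag1), a laminin receptor, was at 217 CPM ± 22.9 in arterial SMC and 180.4 CPM ± 38.3 in pericytes, with overlapping libraries, and at 79.4 CPM ± 6.43 in EC.

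Sparc and Fn1 had their highest levels outside the mural classes. Sparc, a secreted collagen-binding protein (chr11:55394500-55423183), was at 2464 and 2672 CPM in microglia of CSD and 2521 and 2995 CPM in those of HC, with every library above those of fibroblasts at 1453 CPM ± 369.7, EC at 1237 CPM ± 83.6 and pericytes at 1126 CPM ± 125. Free RNA held it at 467 CPM. Choroid plexus cells were at 305 CPM ± 24.7, T cells at 41.7 CPM ± 26.9 and BAM at 34.0 CPM ± 33.5, and astrocytes were at 198 and 520 CPM in CSD and 275 and 698 CPM in HC, on both sides of the free RNA. Fn1, encoding the integrin ligand fibronectin (chr1:71585520-71653200), was at 771 and 982 CPM in EC of CSD and 761 and 683 CPM in EC of HC, and at 21.1 CPM ± 8.66 in pericytes, below the 71.3 CPM of free RNA.

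**Figure D1:**
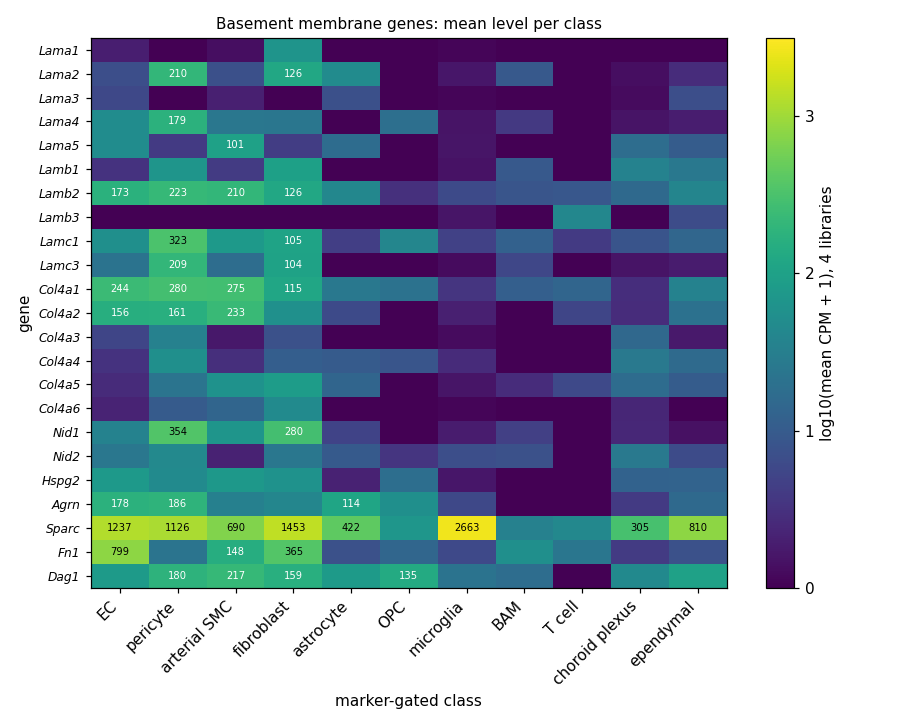
Mean level over 4 libraries of laminin, collagen IV and other matrix genes and Dag1 (rows) in 11 marker-gated classes (columns), coloured by log10(mean CPM + 1), with the CPM printed where it is at least 100. Lama2, Lama4, Lamc1, Lamc3 and Nid1 are highest in pericytes, Fn1 in EC and Sparc in microglia.

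Integrin alpha chains differed between EC and the mural classes. Itga1, a collagen and laminin receptor chain, was at 802 and 894 CPM in pericytes of CSD and 1076 and 811 CPM in those of HC, above every library of EC at 536 CPM ± 95.3 and of arterial SMC at 374 CPM ± 43.3. Itga6, a laminin receptor chain (chr2:71745616-71858416), was at 375 and 580 CPM in EC of CSD and 361 and 423 CPM in EC of HC, at 129 CPM ± 59.8 in astrocytes and 123 CPM ± 18.4 in microglia, and had 1 UMI in pericytes. Itga7, a laminin receptor chain known from muscle, was at 107 CPM ± 15.4 in arterial SMC and 88.9 CPM ± 29.1 in pericytes, with overlapping libraries, and at 3.97 CPM ± 0.96 in EC. Itga8, a chain for RGD ligands, was at 127 CPM ± 40.6 in arterial SMC, while fibroblasts held it at 189 and 39.6 CPM in CSD and 305 and 50.6 CPM in HC. The fibroblast libraries of Itga8 lay both above and below those of arterial SMC.

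Itga4, the chain of VLA-4 that binds Vcam1 and fibronectin, was at 238 and 271 CPM in T cells of CSD and 69.5 and 327 CPM in those of HC. Pericytes held it at 259 and 195 CPM in CSD and 184 and 220 CPM in HC, within the range of the T cells, while EC were at 16.9 CPM ± 4.27 and fibroblasts had 0 UMIs. Summed T cell markers were at 0 CPM in pericytes of every library. Itgav was highest in OPC at 186 CPM ± 44.5 and at 93.2 CPM ± 36.3 in pericytes. Itgam, of the complement receptor Mac-1, was at 398 and 404 CPM in microglia of CSD and 418 and 411 CPM in those of HC, and at 89.7 CPM ± 26.8 in BAM. Itgal, a leukocyte chain, reached 85.7 CPM ± 37.6 in T cells.

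The beta chain Itgb1, which pairs with most alpha chains (chr8:128685654-128733200), was at 959 and 869 CPM in arterial SMC of CSD and 886 and 729 CPM in those of HC, at 575 CPM ± 121 in pericytes and at 303 CPM ± 33.8 in EC. The arterial SMC libraries lay above those of pericytes, from 729 CPM against up to 707 CPM, and overlapped them at 1000 UMIs per cell and with a strict gate that leaves out cells reaching the marker minimum of another class. The pericyte libraries lay above those of EC, from 414 CPM against up to 346 CPM, and overlapped them at 1000 UMIs per cell. Choroid plexus cells at 47.5 CPM and astrocytes at 34.1 CPM were below the 92.4 CPM of free RNA. Itgb5, which pairs with Itgav, was at 743 and 841 CPM in microglia of CSD and 631 and 734 CPM in those of HC, with pericytes next at 166 CPM ± 29.4. Itgb8, which also pairs with Itgav, was at 241 CPM ± 61.2 in OPC and 151 CPM ± 49.4 in astrocytes, with overlapping libraries. Itgb2, the beta chain of leukocyte integrins, was at 164 CPM ± 11.8 in microglia, with T cells next at 114 CPM ± 50.2, and Itgb7 at 198 CPM ± 60.2 in T cells.

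**Figure D2:**
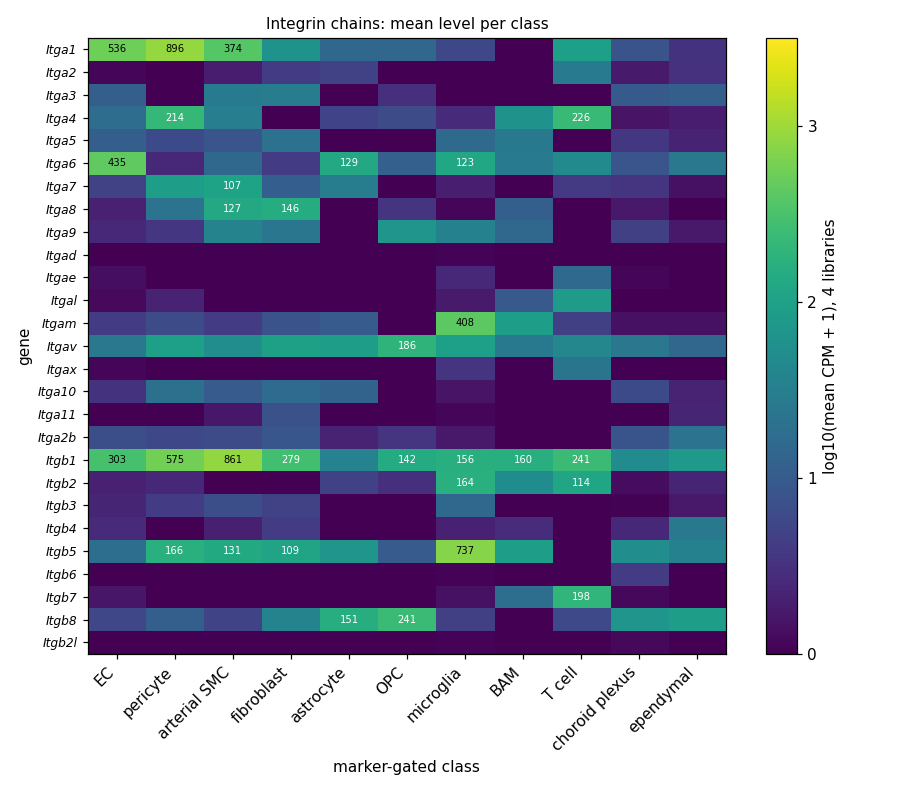
Mean level over 4 libraries of 18 integrin alpha and 9 integrin beta genes (rows) in 11 marker-gated classes (columns), coloured by log10(mean CPM + 1), with the CPM printed where it is at least 100. Itga1 is highest in pericytes, Itga6 in EC, Itgam and Itgb5 in microglia, and Itgb7 in T cells.

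Across the set, 26 of the 53 genes reached a mean of 100 CPM in at least 1 broad class. Their highest class was pericytes for 9, arterial SMC for 5, microglia for 4, EC for 3, OPC and T cells for 2 each and fibroblasts for 1, and in 12 of the 26 every library of that class lay above every library of the next class. Another 21 genes reached 10 CPM, and 6 stayed below it. Of the symbol matches, Col4a3bp was at 367 CPM ± 28.0 in EC and Itgb3bp at 36.7 CPM ± 4.10 in ependymal cells.

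EC and pericytes, which share the capillary basement membrane, were compared in 1 fit over the broad classes with at least 10 cells in every library (edgeR's quasi-likelihood test, Benjamini-Hochberg adjustment over 8447 genes). Library was a block in this fit and in the other fits between classes or subtypes. Their p-values thus leave out shifts that a library's classes share and measure the scatter that remains over the classes fitted. A gene was called with an adjusted p under 0.05 and a change of at least 2-fold. Of 32 genes of the set tested, 4 were called higher in EC, against 14.3% of all genes tested, and 13 lower, against 10.8%, and the median log2 fold change was -0.62 against 0.11 over all genes. Lower in EC were the laminin chains Lama2 (log2 fold change -5.00 ± 0.36, SE, adjusted p = 2.09e-17) and Lamb1 (-4.60 ± 0.52), the integrin chains Itga7 (-4.46 ± 0.37) and Itga8 (-4.11 ± 0.78), and Col4a5 (-3.70 ± 0.67, or -3.10 without CSD library 2). The others were Itga4, Lamc3, Nid1, Itgb5, Lamc1, Itgav, Lama4 (-1.75 ± 0.24) and Dag1 (-1.12 ± 0.20).

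Higher in EC were Itga6, Fn1, Lama5 and Col4a3bp. Fn1 was higher by a log2 fold change of 5.58 ± 0.50 (4.96 without CSD library 2) and Col4a3bp by 3.24 ± 0.29 (4.02 without HC library 2). Itga6 had 3691 UMIs in EC and 1 in pericytes, a ratio of the pooled levels of 247 with an exact 95% interval from 44.3 to 9765 that covers counting error alone. The ratio of Lama5, with 2 UMIs in pericytes, was 13.9 (3.83 to 115). Col4a1, Col4a2, Lamb2, Agrn, Hspg2, Sparc, Itga1 and Itgb1 were not called. Summed EC markers were at 533 to 741 CPM in pericytes against 22476 to 27322 CPM in EC, and summed pericyte markers at 219 to 419 CPM in EC against 17742 to 28726 CPM in pericytes.

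Arterial SMC had less of most laminin chains than pericytes and more of Lama5. Of the 32 genes tested, 6 were called higher, against 11.9% of all genes, and 8 lower, against 10.3%. Lower were Lama2 (-4.77 ± 0.44), Lamb1 (-4.09 ± 0.63), Lamc3 (-3.32 ± 0.31), Lama4 (-2.48 ± 0.30) and Itga4 (-2.36 ± 0.29), and also Agrn, Nid1 and Lamc1. Higher were Itga8 (2.85 ± 0.42), Col4a5 (1.58 ± 0.43) and Fn1 (3.35 ± 0.60, or 2.58 without CSD library 2 and 3.96 without HC library 2). Lama5, with 2 UMIs in pericytes, had a ratio of 28.3 (95% interval 7.73 to 235) and Itga9, with 1, a ratio of 20.9 (3.65 to 837). Itga6, at 13.8 CPM in arterial SMC against 44.1 CPM in free RNA, had a ratio of 7.59 (1.26 to 309.9) on 1 UMI in pericytes, and its call was lost without CSD library 1 (adjusted p = 0.0661) or CSD library 2 (adjusted p = 0.225).

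Fibroblasts had 5 of the 32 genes called higher than in pericytes, against 8.59% of all genes, and 10 lower, against 8.05%. Lower were Itga4, whose level in pericytes was at least 21.4-fold higher than the 3 counts over the class that 0 UMIs allow, Itga1 (-3.88 ± 0.35), Lama4 (-2.92 ± 0.49, or -3.77 without HC library 2) and Agrn (-2.15 ± 0.45), and also Lamc1, Col4a2, Col4a1, Lamc3 and Itgb1. Itga7 was lower too, with 3 UMIs in fibroblasts and a ratio of 9.75 (95% interval 3.17 to 48.7). Higher were Fn1 (4.22 ± 0.62, or 2.47 without CSD library 2 and 4.98 without HC library 2) and Itga8 (2.63 ± 0.52, or 3.23 without CSD library 2). The calls of 3 more were not kept in every setting. With the strict gate Col4a5 (edgeR, adjusted p = 0.0594) and Itgb8 (edgeR, adjusted p = 0.0946) were lost. At 1000 UMIs per cell Itga9 was lost (edgeR, adjusted p = 0.0695). Leaving out single libraries also mattered. Col4a5 (1.78 ± 0.53) was lost without CSD library 1, Itgb8 (2.35 ± 0.85), at 35.6 CPM in fibroblasts against 42.8 CPM in free RNA, without CSD library 1, CSD library 2 or HC library 2, and Itga9, with 1 UMI in pericytes and a ratio of 13.2 (1.69 to 593), without CSD library 1 or HC library 2.

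Astrocytes, which build the outer layer of the capillary basement membrane, had 6 genes called higher than in EC, against 16.7% of all genes, and 16 lower, against 24.6%. Higher were Itgb8 (4.95 ± 0.37), Lama2 (2.85 ± 0.59), Itga7 (2.69 ± 0.64), Itgav (2.02 ± 0.29), Itgb5 and Col4a5 (3.02 ± 0.91, not called without CSD library 2, with 2.15 and an adjusted p of 0.24). Lama2 was at 47.4 CPM ± 32.6 in astrocytes. Astrocytes held Itgb5 at 66.4 CPM ± 33.9, against 73.5 CPM in free RNA. Lower were, among others, Itga1 (-5.51 ± 0.46), Fn1, with 3 UMIs in astrocytes and a ratio of 109.6 (95% interval 37.5 to 531), and Hspg2, with 1 UMI and a ratio of 30.9 (5.53 to 1224). Lama4 and Lamc3 had 0 UMIs in astrocytes, and their EC levels were at least 6.65-fold and 2.77-fold higher than the 3 counts over the class that 0 allows. Agrn, at 114 CPM ± 38.6 in astrocytes, was not called.

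Between the EC subtypes 1 of these genes was called. Of 14 genes of the set tested in the fit of capillary, arterial and venous EC, 0 were called higher and 1 lower in arterial than in capillary EC, against 5% and 5.05% of the 3502 genes tested. It was Itga6, at 221 and 301 CPM in arterial EC of CSD and 194 and 157 CPM in those of HC, and at 425 and 590 CPM and 419 and 477 CPM in capillary EC, a log2 fold change of -1.11 ± 0.14 (edgeR, adjusted p = 1.55e-08). Without HC library 2 it was -0.98 ± 0.16, with an adjusted p of 4.45e-06 but under 2-fold. Libraries of arterial and capillary EC did not overlap for some genes without a call either. In arterial EC Fn1 was lower (423 to 603 against 704 to 961 CPM in capillary EC), as were Sparc (717 to 1009 against 1153 to 1434 CPM) and Col4a3bp (175 to 230 against 386 to 427 CPM). Itgb1 (356 to 467 against 254 to 328 CPM) and Dag1 were higher. In venous against capillary EC 0 of the 14 were called in either direction, against 2.63% and 1.86% of all genes, on 11 to 24 venous cells a library. Summed pericyte markers were at 847 to 1651 CPM in arterial EC and 113 to 201 CPM in capillary EC, and their part in the Itga6 value was not tested.

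BAM were compared with microglia in a fit added after their number was known, since CSD library 2 gave 6 of them. Of 30 genes tested, 1 was called higher in BAM, against 5.51% of all genes, and 6 lower, against 9.2%. Itga4 was higher by 5.41 ± 0.62, or 4.46 without CSD library 1. Lower were Sparc (-6.21 ± 0.38), Itgb5 (-2.74 ± 0.27), Itgam (-2.21 ± 0.30), Itga6 (-1.88 ± 0.48), Itgb2 (-1.78 ± 0.38) and Itgav. Without HC library 1 the first 5 of these were -7.46, -3.40, -2.91, -2.93 and -2.66.

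Lists of partner genes were counted in the same fits. Of 30 adhesome genes, which link integrins to the actin skeleton, 29 were tested. In EC 7 were called higher and 7 lower than in pericytes, against 14.3% and 10.8% of all genes. These were 7 and 4 in arterial SMC, against 11.9% and 10.3%, and 0 and 7 in fibroblasts, against 8.59% and 8.05%. Of 30 partners and assembly genes of basement membranes, 20 were tested, against the same shares of all genes. Of these, 4 were called higher and 5 lower in EC than in pericytes, 7 and 5 in arterial SMC and 8 and 3 in fibroblasts. The list of 30 includes Vtn, which also gated pericytes, so its direction against pericytes was fixed by the gate. In astrocytes against EC, 4 adhesome genes were called higher and 15 lower, and of the partners 2 and 9, against 16.7% and 24.6% of all genes.

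**Figure D3:**
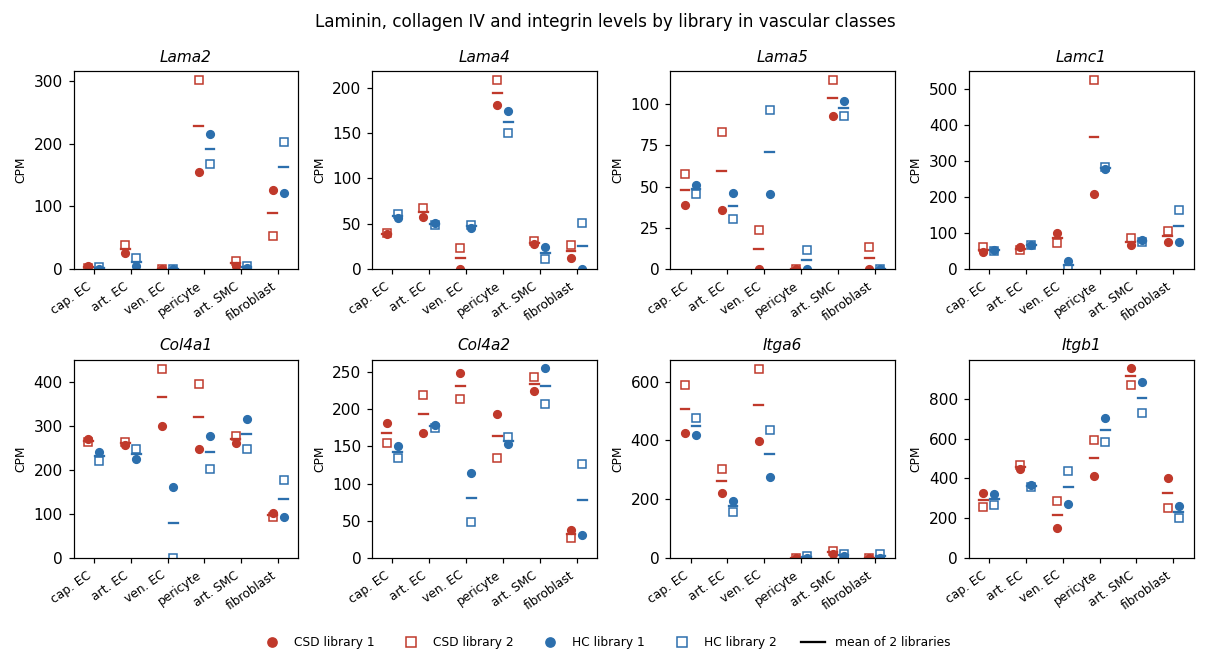
Level in CPM of 8 genes (panels) in each library of 6 vascular classes (x axis), with CSD in red and HC in blue, circles for library 1, squares for library 2 and lines for the mean of 2 libraries. Lama2, Lama4 and Lamc1 are highest in pericytes, and Itgb1 in arterial SMC.

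Whether CSD changed these genes was tested in each class in a fit of 2 CSD against 2 HC libraries over all genes (edgeR's quasi-likelihood test, adjusted p under 0.05). None of the genes of the set passed in any of 13 classes. Of all genes, 0.0489% passed in EC, 0.381% in capillary EC, 0.0602% in arterial EC, 1.61% in venous EC, 0.0389% in pericytes, 0.12% in astrocytes and 0.0609% in choroid plexus cells, and 0% in arterial SMC, fibroblasts, microglia, ependymal cells, T cells and OPC. Over the 13 classes, with EC counted also by subtype, 188 tests of genes of the set were made, and 14 had an unadjusted p under 0.05, against 4.83% of all tests. DESeq2 called 1 of them, Fn1 in fibroblasts, against 0.215% of all tests.

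In EC, 21 of the 28 genes tested had a log2 fold change above 0, with a median of 0.16 against -0.01 over all genes. Without CSD library 2 these were 17 of 30 genes and a median of 0.02, and without CSD library 1 the median was 0.32. Both CSD libraries lay above both HC libraries for 9 of the 28, against 14.3% of all genes, and below for 2, against 24.9%. Itga1 was at 547 and 665 CPM in CSD and 481 and 450.1 CPM in HC, a log2 fold change of 0.43 ± 0.15 (edgeR, unadjusted p = 0.0246, adjusted p = 0.584). Fn1, at 771 and 982 CPM in CSD and 761 and 683 CPM in HC, had 0.33 ± 0.17, and Lamc3, at 25.3 and 24.0 CPM against 14.9 and 17.2 CPM, had 0.66 ± 0.23. Summed pericyte markers in EC were 419 and 293 CPM in CSD and 219 and 375 CPM in HC. Summed oligodendrocyte markers did not overlap, at 1414 and 1127 CPM in CSD and 795 and 793 CPM in HC, with 1233 and 1092 CPM against 712 and 802 CPM in capillary EC, 1895 and 904 CPM against 786 and 761 CPM in arterial EC and 2046 and 1667 CPM against 775 and 1549 CPM in venous EC. The oligodendrocyte sum was 0 to 69.5 CPM in pericytes, 33.4 to 41.0 CPM in microglia and 190 to 427 CPM in fibroblasts. The part of neither list in the EC values was tested. The summed immediate-early and dissociation list was 21812 and 26161 CPM in EC of CSD and 16655 and 18482 CPM in those of HC, with a median log2 fold change of 0.56, and its part was not tested either.

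Lama4 lay below in EC of both CSD libraries, at 40.3 and 41.4 CPM in CSD and 53.3 and 60.8 CPM in HC, a log2 fold change of -0.43 ± 0.16 (edgeR, unadjusted p = 0.0271, adjusted p = 0.584). In capillary EC it was at 38.6 and 39.3 CPM against 56.5 and 61.2 CPM (-0.54 ± 0.20, adjusted p = 0.409). Sparc lay below in EC as well, at 1199 and 1139 CPM against 1285 and 1324 CPM (-0.11 ± 0.14).

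In capillary EC, 6 of 24 genes lay above in both CSD libraries, against 15.5% of all genes, and 2 below, against 23.5%. Itgav was at 24.8 and 34.6 CPM in CSD and 18.8 and 22.5 CPM in HC (0.60 ± 0.29). Each library was below its free RNA, which held Itgav at 34.2 and 47.9 CPM in CSD and 33.4 and 25.4 CPM in HC, also higher in both CSD libraries, and the part of free RNA was not tested. Itga1 was at 564 and 688 CPM and 506 and 486 CPM (0.39 ± 0.16, edgeR, adjusted p = 0.476) and Col4a2 at 182 and 155 CPM and 151 and 134 CPM (0.29 ± 0.17). Without CSD library 1 the log2 fold change of Itga1 was 0.51 ± 0.16. Sparc lay below (-0.12 ± 0.16, or 0.02 without CSD library 2).

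Pericytes had 14 of 17 genes with a log2 fold change above 0 and a median of 0.27, but without CSD library 2, the library that stood apart, 7 of 17 and a median of -0.13. Without a filter on low counts these were 20 of 39 genes and 0.07. There were 4 genes above in both CSD libraries, against 13.8% of all genes, with 0 below, against 20.6%. Itgav was at 116 and 129.7 CPM in CSD and 51.2 and 75.3 CPM in HC (0.95 ± 0.41, edgeR, unadjusted p = 0.0379, adjusted p = 0.937). Lama4 had 0.36 ± 0.29, Agrn 0.29 ± 0.29 and Sparc 0.27 ± 0.27. Summed astrocyte markers in pericytes were 544 and 635 CPM in CSD and 215 and 411 CPM in HC, and summed arterial SMC markers 595 and 616 CPM against 871 and 741 CPM, and their part was not tested. In arterial SMC 4 of 24 genes lay above, against 17% of all genes, and 1 below, against 12.8%, with the largest log2 fold changes for Agrn (0.60 ± 0.40), Lama4 (0.57 ± 0.45) and Col4a3bp (0.51 ± 0.35), the last at 33.1 CPM against 42.3 CPM in free RNA.

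In arterial EC 4 of 13 genes lay above in both CSD libraries, against 19.1% of all genes, and 3 below, against 17.1%. The largest changes above were those of Itga6 (0.50 ± 0.28), Itgb1 (0.31 ± 0.22) and Lama4 (0.27 ± 0.48). Col4a3bp (-0.31 ± 0.27), Sparc (-0.29 ± 0.20) and Lamc1 (-0.22 ± 0.44) lay below. In venous EC, Fn1 was at 1447 and 1334 CPM in CSD and 593 and 871 CPM in HC (0.93 ± 0.36, edgeR, unadjusted p = 0.0327, adjusted p = 0.326). Col4a3bp (0.31 ± 0.42) and Itga1 (0.13 ± 0.41) lay above there and Sparc (-0.21 ± 0.34) below. Of the 5 genes tested in venous EC, 3 thus lay above, against 22.7% of all genes, and 1 below, against 19.3%.

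Fibroblasts held the largest log2 fold change of CSD against HC among the named genes of the set. Fn1 was at 264.5 and 1044 CPM in CSD and 76.3 and 75.9 CPM in HC (3.13 ± 0.79, edgeR, unadjusted p = 0.00537, adjusted p = 0.246). The UMIs were few and uneven: 6 of 20 fibroblasts of CSD library 1 held 21 of them and 5 of 15 fibroblasts of CSD library 2 held 79, with 45 in 1 cell, while 3 of 15 and 5 of 41 fibroblasts of HC held 5 and 6. The adjusted p was 0.0297 with DESeq2, and with edgeR 0.000111 without a filter on low counts and 0.0237 without CSD library 1. Without CSD library 2 the log2 fold change was 1.71 ± 0.50 (edgeR, adjusted p = 0.233). Summed EC markers in fibroblasts were 857 and 1229 CPM in CSD and 549 and 1075 CPM in HC, and summed fibroblast markers 8402 and 4797 CPM and 9200 and 14273 CPM, and their part in the Fn1 values was not tested.

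Of the 7 genes tested in fibroblasts, 2 lay above in both CSD libraries, against 18% of all genes, and 2 below, against 17.9%. Besides Fn1, Itgb5 was at 139 and 159 CPM in CSD and 61.0 and 75.9 CPM in HC (1.09 ± 0.58). Nid1 (-0.51 ± 0.38) and Dag1 (-0.39 ± 0.47) lay below. Summed pericyte markers in fibroblasts also lay below in both CSD libraries, at 403 and 648 CPM in CSD and 870 and 2099 CPM in HC, and their part in these values was not tested.

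**Figure D4:**
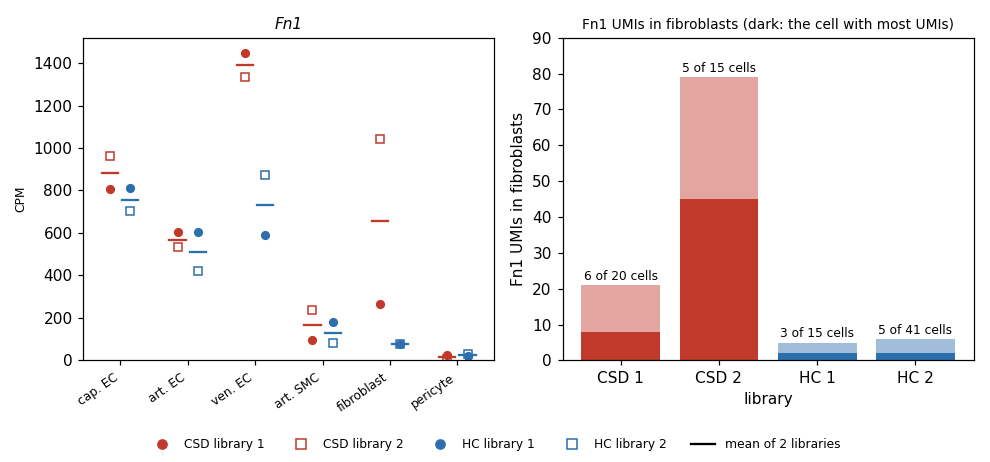
Left, Fn1 level in CPM in each library of 6 vascular classes, with CSD in red and HC in blue, circles for library 1, squares for library 2 and lines for means of 2 libraries. Right, Fn1 UMIs in the fibroblasts of each library, with those of the single richest cell in the dark part of the bar: 45 of the 79 UMIs of CSD library 2 came from 1 cell.

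Outside the vessel wall no gene of the set passed either. In microglia, 2 of 18 genes lay above in both CSD libraries, against 7.79% of all genes, and 4 below, against 13.6%. Itgb5 was at 743 and 841 CPM in CSD and 631 and 734 CPM in HC (0.26 ± 0.29), and Itga6 at 95.7 and 128 CPM and 135 and 133 CPM (-0.21 ± 0.27, or 0.05 without CSD library 1). Itgam, at 398 and 404 CPM against 418 and 411 CPM, had a log2 fold change whose sign turned with the setting. In choroid plexus cells 9 of 33 genes lay above, against 15.8% of all genes, and 4 below, against 12.6%. Nid2 was at 27.0 and 33.0 CPM in CSD and 21.0 and 20.3 CPM in HC (0.49 ± 0.19), with Col4a4 (0.37 ± 0.19) and Itgb1 (0.23 ± 0.17, below its free RNA in every library) next.

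In ependymal cells Lamb1 was at 33.6 and 36.2 CPM in CSD and 8.73 and 17.2 CPM in HC (1.52 ± 0.53, edgeR, unadjusted p = 0.0158, adjusted p = 0.999), and Itgb5 (-0.52 ± 0.42), Itgb3bp (-0.30 ± 0.39) and Itgb1 (-0.26 ± 0.30) lay below. Itgb5 at 34.0 CPM and Itgb1 at 75.3 CPM were under the 73.5 and 92.4 CPM of free RNA there, and summed microglia markers were 63.5 and 63.4 CPM in CSD and 101 and 79.2 CPM in HC. In T cells Itgb1 was at 199 and 141 CPM in CSD and 295 and 327 CPM in HC (-0.84 ± 0.41). In OPC Itgb8, at 194 and 192 CPM against 320.3 and 259 CPM (-0.61 ± 0.38), and Itgb1 (-0.59 ± 0.56) lay below, and in astrocytes Itgb8 (-0.63 ± 0.55). Of 10 genes tested in ependymal cells, 1 lay above, against 17.3% of all genes, and 3 below, against 13%. Below were 1 of 3 in T cells, against 19.9%, 2 of 4 in OPC, against 14.2%, and 1 of 2 in astrocytes, against 9.36%. Summed choroid plexus markers were 484 and 284 CPM in OPC of CSD and 854 and 1336 CPM in those of HC, and 412 and 96.6 CPM against 519 and 744 CPM in astrocytes. The part of these markers was not tested.

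**Figure D5:**
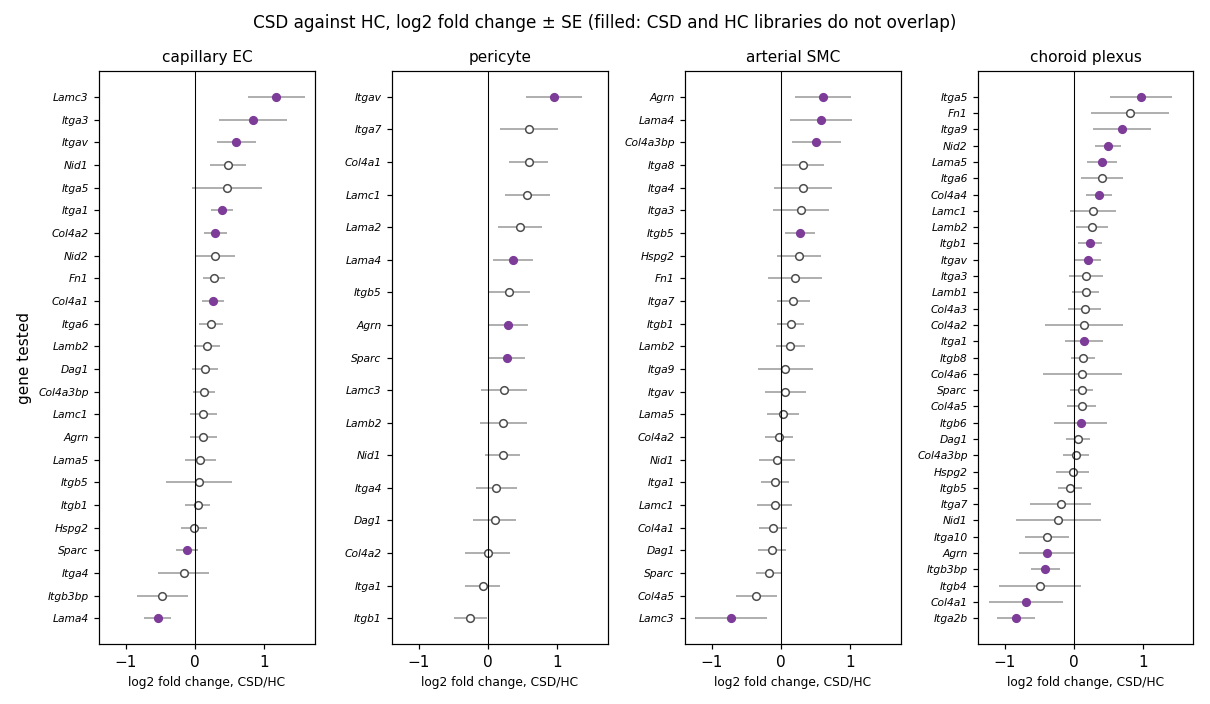
Log2 fold change of CSD against HC with its SE (x axis) for each gene of the set tested in 4 classes (panels), with filled points where the libraries of CSD and HC do not overlap. None passed an adjusted p of 0.05, and in pericytes 14 of 17 points lie above 0, against 7 of 17 genes without CSD library 2.

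For 6 genes whose CSD libraries lay above HC in 1 class and below in another, at 20 CPM or more in both and with EC taken by subtype, the difference between the classes was tested in edgeR, and 0 passed, against 0.0785% of all genes over the 6 pairs of classes. The classes compared for each gene were those with its largest rise and largest fall in these same data. The p-values do not allow for that choice. Lama4 was among the 6 genes, with a difference between arterial SMC and capillary EC of 1.14 ± 0.49 on the log2 scale (edgeR, unadjusted p = 0.0203, adjusted p = 0.902).

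None of the adhesome genes and none of the basement membrane partners passed in CSD against HC in any class, with medians of 0.09 and 0.18 in EC and 0.01 and 0.16 in pericytes. Of the immediate-early and dissociation list, Fosb passed in capillary EC (0.84 ± 0.16), Hspa1b in choroid plexus cells (1.17 ± 0.21) and Fos in astrocytes (-4.10 ± 0.64). Hspa1b has a near-identical copy, Hspa1a, with which it may share reads.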

How the data were processed

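Libraries of the 10x 3′ kit were sequenced, and the authors deposited the raw UMI counts of each library, unnormalized and with every barcode kept. The submitters' processing notes name Cell Ranger 4.0 and GRCm38, and the study's methods name another version. The 53 genes and all lists were chosen with earlier results of these data known. Of the 53, 1 is counted but not reported here.

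To enter a class, a cell needed at least 3 UMIs from at least 2 of its markers. These UMIs had to reach at least 2 times the number expected from free RNA. Of such classes a cell took the one with the highest score, the mean log level of the markers. It was set as mixed where the next class exceeded 0.5 of that score. EC subtypes were gated among EC in the same way but without the free RNA limit. These limits were set after cell numbers were seen. Of 14415 cells, 659 mixed cells, in which doublets would fall, and 655 others were left out, and no doublet caller was run. Counts were summed per class and library and tested with edgeR 4.0.16 in R 4.3.3 (quasi-likelihood test, Benjamini-Hochberg adjustment), with DESeq2 1.42.0 as an alternative, in classes with at least 10 cells in every library, so that BAM entered an added fit alone. Scripts were tested on simulated data.

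Named genes between classes were those with a mean of at least 100 CPM in a class and up to 5 called per direction in a contrast, and for CSD up to 3 per direction and class with the largest change among genes of at least 20 CPM whose libraries did not overlap. Other genes named here were chosen after their values were seen. Floors of 3 counts and exact 95% intervals cover counting error only. Coordinates are from GENCODE on GRCm38 and sequences from RefSeq.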

Additional observations from a re-analysis of the deposited data

Results flagged for a closer look

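For 6 genes of the set, both CSD libraries lay above both HC libraries in 1 class and below them in another, at a mean of 20 CPM or more in both classes and with EC taken by subtype, and the difference between the 2 changes was tested in edgeR over all genes. None passed an adjusted p of 0.05. The 2 classes of each gene were those with its largest rise and largest fall in these same data, and the p-values do not allow for that choice. The difference of Lama4 between arterial SMC and capillary EC was 1.14 ± 0.49 on the log2 scale (SE, unadjusted p = 0.0203, adjusted p = 0.902), and Lama4 also lay above HC in pericytes and arterial EC. The difference of Itgb1 between arterial EC and T cells was 1.16 ± 0.54 (unadjusted p = 0.0336, adjusted p = 1). That of Sparc between pericytes and arterial EC was 0.51 ± 0.27 (adjusted p = 0.93), and Sparc lay below HC in capillary and venous EC too. Col4a3bp differed by 0.81 ± 0.42 between arterial SMC and arterial EC (adjusted p = 0.996), Itga6 by 0.80 ± 0.45 between arterial EC and microglia (adjusted p = 1) and Itgb5 by 1.60 ± 0.94 between fibroblasts and ependymal cells (adjusted p = 1).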

How the results depend on the processing

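Over the 13 classes 0 genes of the set were called between CSD and HC, 1 with DESeq2 and 1 without a filter on low counts (Fn1 in fibroblasts both times), and 0 to 2 when 1 library was left out: without CSD library 1, Fn1 in fibroblasts (0 to 1) and Itga1 in capillary EC (0 to 1). Between arterial and capillary EC 0 to 1 was called when 1 library was left out, and between the broad classes 59 to 66 calls, against 68. Signs turned for Itga6 in microglia when 1 library was left out (log2 fold change -0.523 to 0.0504, above 0 without CSD library 1), Itgam in microglia with DESeq2 (0.0057), without a filter (0.0186) and when 1 library was left out (-0.0956 to 0.0822, above 0 without CSD library 1 or HC library 2), Sparc in capillary EC when 1 library was left out (-0.259 to 0.0229, above 0 without CSD library 2) and Sparc in venous EC with the strict gate (0.0516), and the cause was not tested. Of all genes, 58 were called over the classes, 134 with DESeq2, 419 without a filter, 240 with the replicate number as a block and 77 to 668 when 1 library was left out. With that replicate block 0 genes of the set were called. The labels do not say whether samples with the same number were processed together. Correlations of the deviations of such samples were from -0.0048 to 0.42 over the classes. At 1000 UMIs per cell Agrn and Lama4 in pericytes were at 131 and 128 CPM, and with the strict gate Itga7 in arterial SMC was at 87.3 CPM. The highest class stayed for 23 of 26 genes at 1000 UMIs and 24 of 26 with the strict gate. Few cells limit fibroblasts, venous EC and BAM.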
